A study of Mus musculus with 9 samples.

Results

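A set of 46 genes of DNA replication and S phase was followed in the cortex of mouse embryos at embryonic day E12.5. The genes were chosen by symbol, as genes that license origins, build the replication fork, supply nucleotides, assemble chromatin on new DNA or drive entry into S phase, and each symbol was matched to 1 of the 57010 Ensembl genes in the counts table. Of the 46 genes, 45 had more than 10 reads in every embryo and were tested among 13680 genes. *Fen1*, the flap endonuclease of the lagging strand, did not reach that level.

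Cortical tissue was microdissected from single embryos and poly(A) RNA was sequenced, with 3 embryos for each of 3 genotypes. Control embryos (Ctrl) are labelled WT, and whether they carried *Emx1*-Cre or floxed alleles is not given in the sources used here. *Cnot3* conditional knockout embryos (cKO) lost floxed *Cnot3*, which encodes a subunit of the CCR4-NOT deadenylase complex, through *Emx1*-Cre. *Cnot3;Trp53* double conditional knockout embryos (dcKO) lost floxed *Cnot3* and floxed *Trp53*, the gene of the p53 protein, through the same Cre. *Emx1*-Cre acts in radial glial cells (RGCs) of the dorsal telencephalon and in their progeny, so blood, vessels, microglia and meninges in the dissected tissue keep both genes. The question was how loss of *Cnot3*, with and without p53, left the mRNA levels of the replication genes. In bulk tissue, fewer cells of a type and less RNA per cell cannot be told apart.

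Total counts ranged from 21193798 to 45073349 per embryo. Levels are given as CPM, the counts of a gene per 1000000 counts of its library after trimmed-mean (TMM) scaling. *Cnot3* was measured at 117.3, 107 and 98.2 CPM in Ctrl, 14.96, 17.3 and 14.6 in cKO and 7.33, 48.2 and 19.0 in dcKO, and *Trp53* at 237, 254 and 215 CPM in Ctrl, 167, 164 and 167 in cKO and 15.1, 110.4 and 20.6 in dcKO. Both genes were below every Ctrl embryo in each mutant embryo, and dcKO replicate 2 retained the highest level of both genes among the dcKO embryos. All 9 marker genes of RGCs were detected, and they did not move together. Their sum was 2943 to 3347 CPM in Ctrl, 2993 to 3482 in cKO and 3159 to 3389 in dcKO. Within it, *Vim* was higher in the 3 cKO embryos (1659 to 2029.9 CPM) than in Ctrl (1159 to 1496), *Nes* was lower (568 to 753 against 1030 to 1085), and *Hes5*, a Notch target, was at 37.8, 31.0 and 22.0 CPM in Ctrl, 6.75, 7.85 and 10.9 in cKO and 5.08, 12.6 and 28.1 in dcKO. Of the 9 genes, 2 were lower and 1 higher in cKO at an unadjusted edgeR p under 0.05, beside 11.7% and 15.3% of all genes (1 and 0 with a GC correction, beside 18.6% and 16.2%). In dcKO 1 was lower and 1 higher, beside 11.2% and 18.0% (0 and 1 with the correction, beside 13.2% and 13.1%). DESeq2 called 2 lower in cKO, beside 7.07%, and 1 higher in dcKO, beside 10.3%.

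DNA replication starts in G1, when the origin recognition complex, CDC6 and CDT1 load the ring-shaped MCM2-7 helicase onto origins, a step called licensing that geminin blocks later in the cycle. In S phase, CDC45 and the GINS complex join MCM2-7 to form the active helicase. Polymerase alpha with primase starts each strand, polymerases delta and epsilon extend it on the PCNA clamp, and the RFC complex loads that clamp. Most of these genes are transcribed at the G1/S transition under E2F factors, and in the early cortex they mark RGCs, which divide rapidly at the ventricle.

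E2F-type words were searched in the promoters of the genes, because E2F factors are their best known common regulators and *E2f1* was the gene with the smallest p against Ctrl in both mutants. RefSeq promoter windows (GRCm38.p6, 250 bases before to 50 bases after the start) were found for 37 of the 46 genes, in 42 windows. The words TTTGGCGC, TTTCCCGC, TTTGCCGC and TTTCGCGC were searched on both strands, and overlapping matches were kept. At least 1 word was present in 14 of 42 windows (33.3%), against 744 of 32851 promoter windows of all genes (2.26%). By role, a word was present for 7 of 9 licensing genes, 3 of 5 polymerase and primase genes, 2 of 9 clamp and lagging strand genes, 1 of 3 helicase activation genes and 1 of 5 chromatin genes. It was present for 0 of 4 nucleotide supply genes and 0 of 2 G1/S regulators, *E2f1* among them. The stretches upstream of the start are shown 5′ to 3′ on the gene's strand for 5 genes described below, with the words in capitals. In *Mcm5* (GRCm38.p6, chr8:75109340-75109383, plus strand) and in the first match of *Mcm6* (chr1:128359729-128359831, minus strand), 2 words on opposite strands overlap to form a longer run. The other stretches are from *Orc1* (chr4:108579411-108579450, plus strand), *Gins3* (chr8:95633502-95633541, plus strand) and *Uhrf1* (chr17:56304112-56304151, plus strand).
Mcm5: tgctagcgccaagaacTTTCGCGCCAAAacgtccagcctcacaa
Mcm6: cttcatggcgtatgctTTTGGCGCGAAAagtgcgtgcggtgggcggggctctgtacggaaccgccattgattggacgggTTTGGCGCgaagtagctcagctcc
Orc1: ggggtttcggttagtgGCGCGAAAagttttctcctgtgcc
Gins3: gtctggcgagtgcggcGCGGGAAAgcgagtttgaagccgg
Uhrf1: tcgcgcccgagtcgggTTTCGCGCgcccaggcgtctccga
These 5 genes did not share a direction. *Mcm6* and *Orc1* lay higher in every mutant embryo than in any Ctrl embryo, and *Mcm5*, *Gins3* and *Uhrf1* lay lower in every cKO embryo. *Cdc6*, *Mcm7*, *Pola1* and *Rfc3*, not shown, also had a word upstream of the start, and their cKO embryos overlapped Ctrl.

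In Ctrl cortices the genes spanned a wide range of levels. Per kilobase of exon (RPKM), *Rrm2*, a subunit of ribonucleotide reductase, was highest at 202 ± 8.22 (SD, n = 3), followed by *Pcna* at 169.6 ± 19.1 and *Mcm7* at 151 ± 2.23. The lowest tested genes were *Ccne2* at 7.95 ± 0.825 and *Orc1* at 4.15 ± 0.327. *Mcm6*, at 118 ± 7.01 RPKM, and *Uhrf1*, also at 118 with an SD of 13.0, did not differ beyond their spread.

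The genes did not move as one block in either mutant. With edgeR's quasi-likelihood test over all 9 embryos, 0 of 45 genes passed an adjusted p of 0.05 in cKO against Ctrl, where 0.0146% of all genes tested did, and 0 of 45 in dcKO against Ctrl, where 0.0% did. The median log2 fold change of the 45 genes was -0.04 in cKO, against 0.01 for all genes, and -0.05 in dcKO, against 0.11 for all genes. The cKO values spanned -1.34 to 0.66 and the dcKO values -1.37 to 0.85. Both comparisons use the same 3 Ctrl embryos. At an unadjusted p under 0.05, cKO had 7 genes lower and 6 higher, beside 11.7% and 15.3% of all genes tested. In dcKO the counts were 6 lower and 6 higher, beside 11.2% and 18.0%.

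Other tools applied to the same genes gave more calls. DESeq2 called 1 gene lower (*E2f1*) and 1 higher (*Rfc4*) in cKO at an adjusted p under 0.05, where it called 7.07% of all genes lower and 9.6% higher. In dcKO it called 2 lower (*E2f1* and *Cdc45*) and 3 higher (*Rfc4*, *Gins1* and *Prim1*), beside 7.4% and 10.3%. limma voom with sample quality weights called 14 lower and 12 higher in cKO, beside 27.3% and 27.6%, and 14 lower and 11 higher in dcKO, beside 26.2% and 26.5%. In each of these comparisons the share of replication genes called was near or below the share of all genes. In dcKO, limma voom gave log2 fold changes of -2.00 for *Tk1*, -1.48 for *Gins2* and -2.31 for *Pold1*. With edgeR they were -1.04, -0.57 and -0.74 with all embryos, and -1.92, -1.54 and -2.47 without dcKO replicate 3. *Slbp* went the other way, at 0.76 by limma voom, 0.69 with all embryos and 0.96 without that embryo. The part of the embryo weights in the number of calls was not tested.

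**Figure D1:**
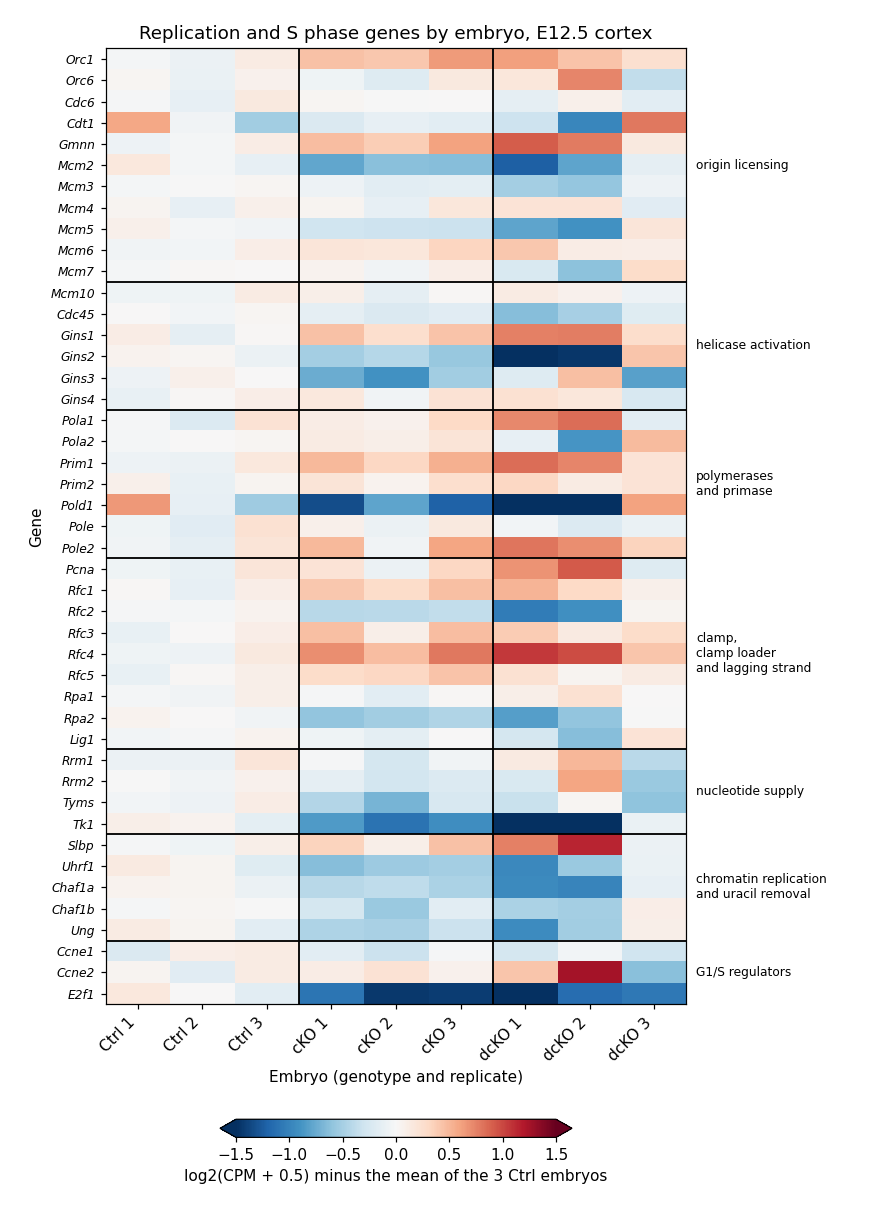
Level of each of the 45 tested genes (rows, grouped by role) in each of the 9 embryos (columns), as log2(CPM + 0.5) minus the mean of the 3 Ctrl embryos, with blue below and red above that mean. *E2f1* is blue in all 6 mutant embryos and *Rfc4* red in all 6, and the column of dcKO replicate 3 is paler than those of the other 2 dcKO embryos.

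The number of calls depended on which embryos were in the model. In dcKO replicates 1 and 2, 23 and 29 of the 45 genes lay more than 0.5 log2 units from the Ctrl mean, and in dcKO replicate 3 only 7 did. The cKO embryos had 9, 9 and 12 such genes. With only the 6 cKO and Ctrl embryos in the model, edgeR called 15 of 46 genes lower and 9 higher in cKO, beside 23.7% and 23.5% of 14095 genes. With dcKO replicate 3 left out, it called 12 lower and 7 higher in cKO, beside 14.7% in each direction, and 16 lower and 12 higher in dcKO, beside 23.6% and 25.3%. The values below are from the 9-embryo model unless another is named.

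Some limits bear on single genes. The embryo codes hold a number whose meaning is not given in the sources used here, and as a block in the model it turned 5 of the dcKO values below to the other side of 0 (*Gins2*, *Pold1*, *Slbp*, *Tk1* and *Uhrf1*). Of the dcKO embryos, only replicate 3 shares its number with another embryo, Ctrl replicate 3. A dcKO value with this block therefore compares dcKO replicate 3 with Ctrl replicate 3 alone and is not an estimate over 3 dcKO embryos. A GC correction, described with GC content below, is given beside each log2 fold change of a single gene that it moved by over 1.5 times. Where leaving out 1 embryo moved such a value by over 1.5 times, the range is given too. In the annotation, 11 of the 46 genes overlap a gene on the opposite strand (*Orc6*, *Mcm7*, *Cdc45*, *Gins2*, *Rfc4*, *Rfc5*, *Fen1*, *Lig1*, *Tk1*, *Chaf1a* and *Ccne2*), and the strand setting used in counting is not given in the sources used here, so that reads of the partner in their values cannot be told apart.

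Agreement between single embryos was described without a model as well. In cKO, 17 of 45 genes lay below every Ctrl embryo in all 3 embryos (28.0% of all genes did) and 9 lay above (29.2%). In dcKO, 5 lay below (11.2%) and 9 above (15.6%). All 6 mutant embryos were below every Ctrl embryo for 5 genes, *Mcm2*, *Mcm3*, *Cdc45*, *Chaf1a* and *E2f1* (8.98% of all genes), and above for 6 genes, *Orc1*, *Gmnn*, *Mcm6*, *Gins1*, *Prim1* and *Rfc4* (13.0%). For groups of 3 that do not overlap, the exact two-sided permutation p is 0.1, the smallest this design allows.

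**Figure D2:**
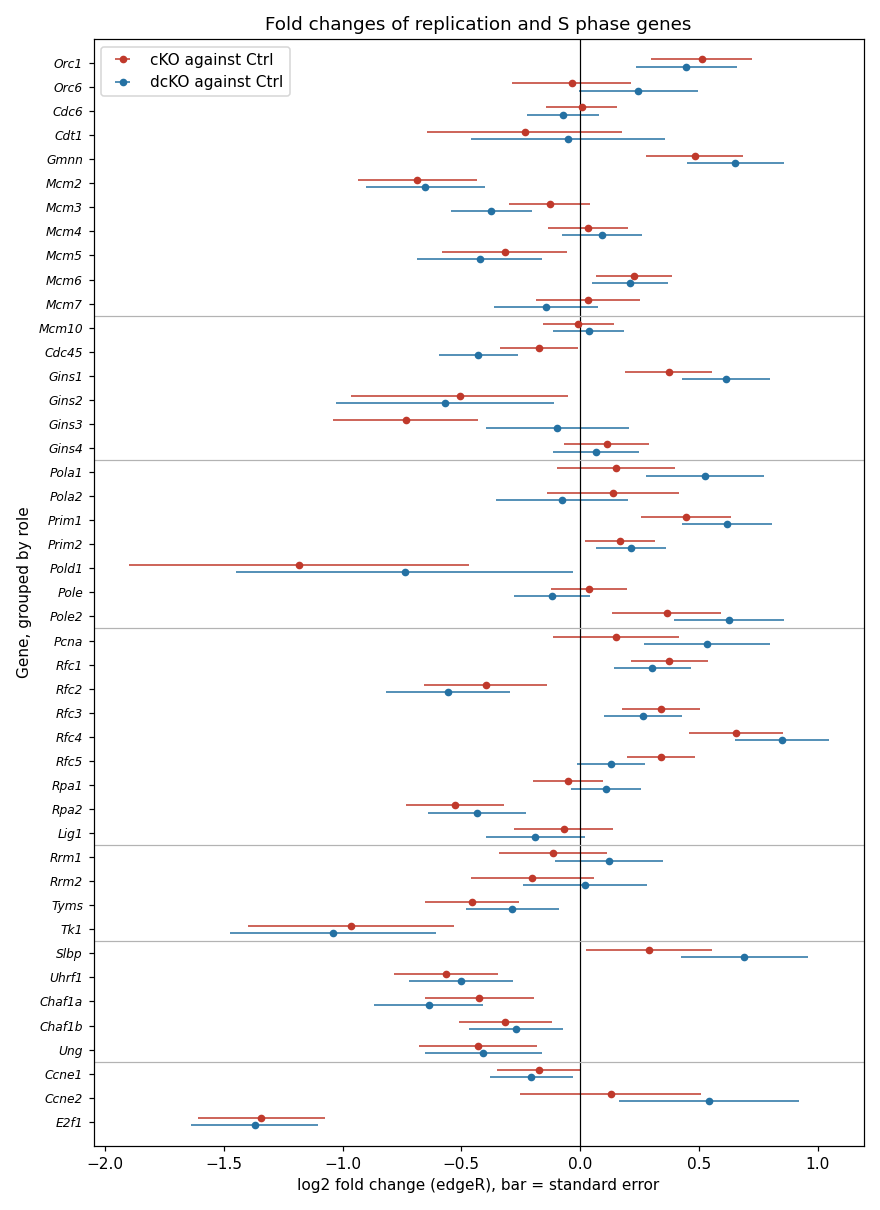
Fitted log2 fold change of the 45 tested genes in cKO (red) and dcKO (blue) against Ctrl, with bars of 1 standard error, grouped by role. *E2f1* lies lowest at -1.34 and -1.37, *Rfc4* highest at 0.66 and 0.85, and subunits of the MCM, GINS and RFC complexes lie on both sides of 0.

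Among the G1/S regulators, *E2f1*, an activator of the S phase program (GRCm38, chr2:154559407-154569892, minus strand), was the lowest against Ctrl. It was measured at 57.7, 51.8 and 46.2 CPM in Ctrl, 23.9, 18.6 and 18.9 in cKO and 12.8, 23.1 and 24.3 in dcKO. Every mutant embryo lay below every Ctrl embryo, and the 2 mutants overlapped. The log2 fold change was -1.34 (SE 0.27) in cKO and -1.37 (SE 0.27) in dcKO, with edgeR adjusted p of 0.0509 and 0.0502 and DESeq2 adjusted p of 0.00021 and 0.00013. With the GC correction the values were -0.84 and -0.55, with edgeR adjusted p of 0.0813 and 0.265. The cyclins E activate CDK2 at the G1/S transition. *Ccne1* was at 50.3, 62.8 and 63.7 CPM in Ctrl, 52.4, 46.7 and 57.8 in cKO and 48.8, 57.0 and 47.5 in dcKO, and the groups overlapped. *Ccne2* was at 28.5, 24.6 and 30.2 CPM in Ctrl, 29.9, 32.2 and 29.0 in cKO and 37.0, 66.6 and 17.7 in dcKO, with dcKO replicate 2 above every other embryo and dcKO replicate 3 below.

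The 11 licensing genes were split. *Mcm2* (GRCm38, chr6:88883474-88898780, minus strand), a subunit of the helicase ring, was measured at 487, 427 and 399.7 CPM in Ctrl, 255, 281 and 281 in cKO and 186, 253 and 397 in dcKO. The log2 fold change was -0.69 (SE 0.25) in cKO and -0.65 (SE 0.25) in dcKO, with edgeR adjusted p of 0.118 and 0.121. Leaving out 1 embryo gave -0.997 to -0.43 in dcKO, the lowest without dcKO replicate 3 (edgeR adjusted p = 0.000909). All 6 mutant embryos lay below Ctrl, although dcKO replicate 3 did so by only a small margin. *Mcm3*, another ring subunit, was at 486, 493 and 507 CPM in Ctrl, 470.2, 442 and 447 in cKO and 347, 332 and 468 in dcKO, with log2 fold changes of -0.13 (SE 0.17) and -0.37 (SE 0.17), and -0.086 and -0.24 with the GC correction. *Mcm5* was at 468, 434 and 428 CPM in Ctrl, 359, 356 and 353 in cKO and 255, 235 and 502 in dcKO, and only dcKO replicate 3 exceeded the Ctrl embryos.

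The other 3 ring subunits varied. *Mcm6* was measured at 526, 533 and 586 CPM in Ctrl, 623, 616 and 687 in cKO and 727, 590.4 and 587 in dcKO. Its 6 mutant embryos all lay above Ctrl, dcKO replicate 3 by under 1 CPM, with log2 fold changes of 0.23 (SE 0.16) and 0.21 (SE 0.16) and values of 0.058 and -0.023 with the GC correction. In dcKO, values without 1 embryo ran from 0.10 to 0.26. *Mcm4* was at 297, 265 and 303 CPM in Ctrl, 297, 264 and 324 in cKO and 333, 333 and 255 in dcKO, and the groups overlapped. *Mcm7* was at 656, 674 and 671 CPM in Ctrl, 693, 643 and 713 in cKO and 569.9, 434 and 807 in dcKO, with dcKO replicates 1 and 2 below every Ctrl embryo and dcKO replicate 3 above, as for *Mcm5*. Subunits of a single ring thus lay on both sides of Ctrl, and the difference between subunits was not tested.

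Among the loading factors and their inhibitor, *Gmnn*, which encodes geminin, was measured at 60.8, 62.8 and 69.1 CPM in Ctrl, 88.8, 82.8 and 97.5 in cKO and 120.9, 111 and 71.3 in dcKO. Each mutant embryo exceeded every Ctrl embryo, with log2 fold changes of 0.48 (SE 0.20) in cKO and 0.65 (SE 0.20) in dcKO and edgeR adjusted p of 0.166 and 0.0794. *Orc1*, the largest subunit of the origin recognition complex, was at 14.1, 13.5 and 15.7 CPM in Ctrl, 19.7, 19.3 and 22.8 in cKO and 22.3, 19.6 and 17.1 in dcKO, again with all mutant embryos above Ctrl and log2 fold changes of 0.51 (SE 0.21) and 0.45 (SE 0.21), and of 0.33 and 0.17 with the GC correction. *Cdc6*, the loader that joins it, was at 83.1, 77.5 and 93.3 CPM in Ctrl, 86.4, 83.8 and 84.7 in cKO and 77.0, 88.8 and 75.5 in dcKO, and the 3 groups overlapped. *Cdt1*, the loader that geminin binds, was at 115, 73.8 and 53.5 CPM in Ctrl, 66.3, 70.7 and 69.1 in cKO and 61.9, 38.7 and 133 in dcKO. Its Ctrl embryos alone spanned a wider range than the cKO embryos. *Orc6* was the remaining licensing gene, and its groups overlapped in both mutants.

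**Figure D3:**
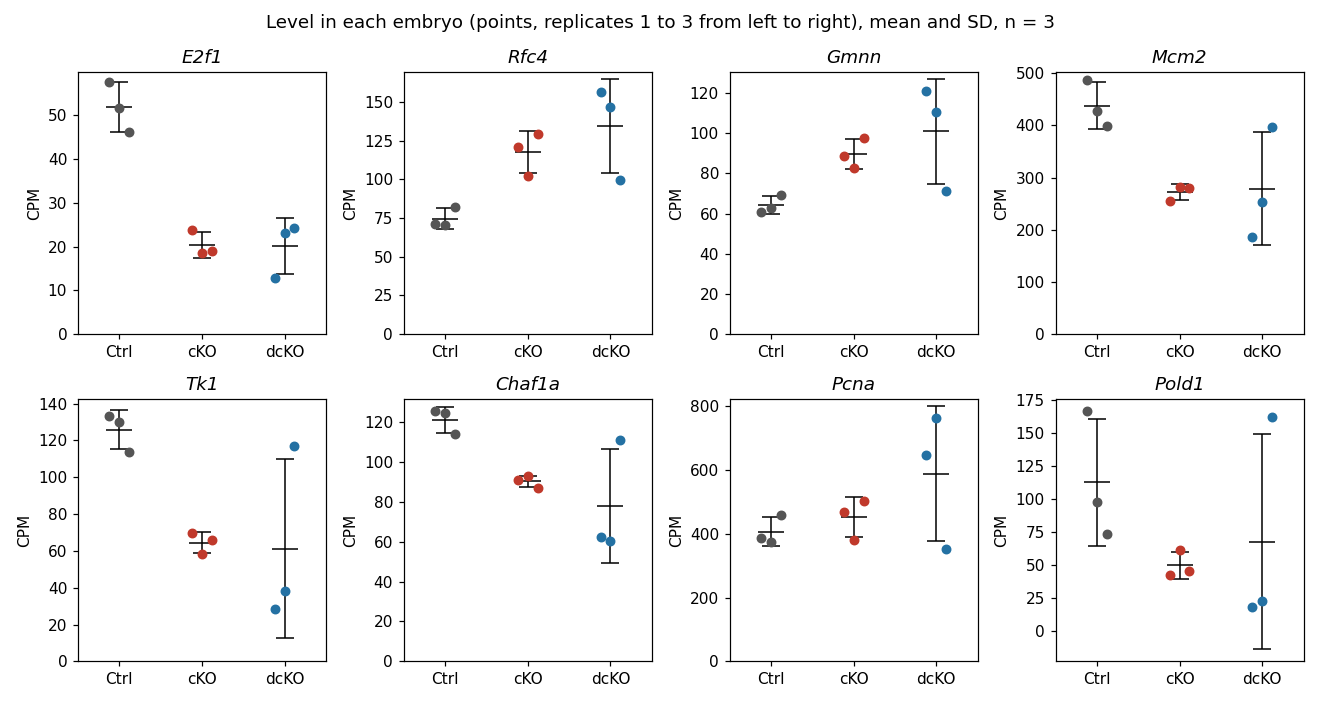
CPM of 8 genes in each embryo (points, replicates 1 to 3 from left to right within a genotype), with the mean and SD of 3 embryos as bars. The axis starts at 0 except for *Pold1*, where the SD of dcKO reaches below 0. *E2f1* is lower in all 6 mutant embryos, while *Tk1*, *Pcna* and *Pold1* show dcKO replicate 3 apart from the other 2 dcKO embryos.

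Helicase activation genes were split as well. *Gins1*, a GINS subunit, was measured at 51.4, 43.3 and 48.3 CPM in Ctrl, 64.6, 56.5 and 63.9 in cKO and 80.5, 81.1 and 57.2 in dcKO, above Ctrl in every mutant embryo, with log2 fold changes of 0.37 (SE 0.18) and 0.61 (SE 0.18) and a DESeq2 adjusted p of 0.0351 in dcKO. With the GC correction its values were 0.19 and 0.33. Its partner *Gins3* was at 26.6, 29.7 and 28.3 CPM in Ctrl, 16.6, 14.7 and 19.5 in cKO and 24.6, 38.6 and 15.9 in dcKO. The 3 cKO embryos lay below Ctrl, with a log2 fold change of -0.73 (SE 0.30) and an edgeR adjusted p of 0.157, and the dcKO embryos spanned both sides of Ctrl, with -0.10 (SE 0.30). The GC correction gave -0.89 and -0.34, and leaving out 1 embryo -0.48 to 0.16 in dcKO. *Gins2* was at 50.5, 49.7 and 45.8 CPM in Ctrl, 33.9, 36.0 and 32.7 in cKO and 16.02, 17.4 and 65.1 in dcKO. The 3 cKO embryos and dcKO replicates 1 and 2 were lower and dcKO replicate 3 higher than every Ctrl embryo. The log2 fold change in dcKO was -0.57 (SE 0.46) with all embryos and -1.54 (SE 0.16, adjusted p = 0.000286) by edgeR without dcKO replicate 3 (-1.54 to -0.24 over all omissions of 1 embryo), and with the embryo code number as a block it was 0.51. *Cdc45*, which completes the helicase, was at 75.5, 73.6 and 77.3 CPM in Ctrl, 68.8, 65.1 and 67.0 in cKO and 48.3, 53.4 and 66.6 in dcKO, with log2 fold changes of -0.17 (SE 0.16) and -0.43 (SE 0.16) and a DESeq2 adjusted p of 0.048 in dcKO. The GC correction gave -0.27 and -0.52. For *Gins4*, the last GINS subunit, and *Mcm10*, which helps to activate the helicase, both mutants overlapped Ctrl.

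Of 7 polymerase and primase genes, *Prim1*, the catalytic subunit of primase, had the smallest p in both mutants. It was measured at 86.6, 85.9 and 101 CPM in Ctrl, 128, 113 and 132 in cKO and 163, 152 and 105 in dcKO. The mutant embryos all lay above Ctrl, with log2 fold changes of 0.44 (SE 0.19) and 0.62 (SE 0.19) and edgeR adjusted p of 0.168 and 0.0754, and with the GC correction the values were 0.19 and 0.17. *Pola1*, the catalytic subunit of polymerase alpha, was at 82.9, 72.7 and 97.0 CPM in Ctrl, 90.3, 87.5 and 103 in cKO and 138, 150.4 and 75.1 in dcKO, with dcKO replicates 1 and 2 above all other embryos. *Pold1*, the catalytic subunit of polymerase delta, lay at the low end, at 166, 97.4 and 73.0 CPM in Ctrl, 41.9, 61.1 and 45.2 in cKO and 18.2, 22.4 and 162 in dcKO. Its Ctrl embryos alone differed by more than 2-fold, and the log2 fold changes of -1.18 (SE 0.72) and -0.74 (SE 0.71) had the largest standard errors of the group. Leaving out 1 embryo gave -1.42 to -0.79 in cKO and -2.47 to -0.29 in dcKO. Without dcKO replicate 3, the value in dcKO was -2.47 (SE 0.33, adjusted p = 0.000411) by edgeR, and with the embryo code number as a block it was 1.15. The GC correction gave -0.41 and -0.24 for *Pold1*, which has the highest GC content of the 45 genes. *Pole2*, an accessory subunit of polymerase epsilon, was at 27.0, 25.5 and 32.3 CPM in Ctrl, 39.4, 27.1 and 42.6 in cKO and 49.6, 45.8 and 35.5 in dcKO, and its dcKO embryos lay above Ctrl. The catalytic subunit *Pole* overlapped Ctrl in both mutants. *Pola2*, the accessory subunit of polymerase alpha, lay above Ctrl in the 3 cKO embryos (111 to 119.1 against 102 to 106 CPM), and *Prim2*, the large subunit of primase, in the 3 dcKO embryos (84.4 to 95.7 against 71.5 to 81.3 CPM).

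Among clamp and clamp loader genes, *Rfc4* (GRCm38, chr16:23113943-23127737, minus strand), a small subunit of the RFC loader, had the largest positive fold change of all 45 genes. It was measured at 71.1, 70.5 and 82.3 CPM in Ctrl, 121.1, 102 and 129 in cKO and 156, 147 and 99.7 in dcKO. Each mutant embryo exceeded every Ctrl embryo, with log2 fold changes of 0.66 (SE 0.20) and 0.85 (SE 0.20), edgeR adjusted p of 0.0768 and 0.0511 and DESeq2 adjusted p of 0.0382 and 0.00665. The values were 0.40 and 0.38 with the GC correction. *Rfc4* is one of the genes with a partner on the opposite strand (*Eif4a2*). Its partner *Rfc2* was at 148, 146 and 155 CPM in Ctrl, 112, 113 and 115.8 in cKO and 72.2, 78.9 and 154 in dcKO. The cKO embryos and dcKO replicates 1 and 2 lay below Ctrl, and dcKO replicate 3 among the Ctrl embryos. *Rfc5* was at 82.0, 90.3 and 94.9 CPM in Ctrl, 108, 110.5 and 120.05 in cKO and 104, 91.6 and 97.0 in dcKO, and its cKO embryos lay above Ctrl. *Rfc1*, the large subunit, also lay above Ctrl in the cKO embryos (176 to 199 against 134 to 156 CPM), and *Rfc3* in the dcKO embryos (82.2 to 97.1 against 69.2 to 79.96 CPM). *Pcna*, the clamp itself, was at 387, 374 and 459 CPM in Ctrl, 469, 382 and 504 in cKO and 647, 765 and 354 in dcKO. The cKO embryos overlapped Ctrl, dcKO replicates 1 and 2 exceeded all other embryos, and dcKO replicate 3 was the lowest of the 9.

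On the lagging strand, *Rpa2*, a subunit of the protein that coats single-stranded DNA, was at 166, 161 and 154 CPM in Ctrl, 106, 111 and 116.7 in cKO and 90.2, 106 and 159.9 in dcKO, and only dcKO replicate 3 was among the Ctrl embryos. Its partner *Rpa1* and *Lig1*, the ligase that joins Okazaki fragments, overlapped Ctrl in both mutants. *Fen1* had 213, 92 and 35 reads in the Ctrl embryos, 12, 22 and 27 in cKO and 2, 18 and 153 in dcKO. The Ctrl embryos alone were far apart. The log2 fold change by edgeR with only the 6 embryos of cKO and Ctrl was -2.67 (SE 0.63, adjusted p = 0.00579). Its partner on the opposite strand is *Tmem258*.

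All 4 nucleotide supply genes had negative fold changes in cKO. *Tk1*, thymidine kinase of the salvage pathway (GRCm38, chr11:117815526-117826092, minus strand), was measured at 133, 130.2 and 114 CPM in Ctrl, 69.5, 58.1 and 65.7 in cKO and 28.4, 38.3 and 117.02 in dcKO. The log2 fold change was -0.96 (SE 0.43) in cKO and -1.04 (SE 0.43) in dcKO, with edgeR adjusted p of 0.185 and 0.146. In dcKO, replicate 3 lay among the Ctrl embryos, and without it the value was -1.92 (SE 0.17, adjusted p = 0.000286) by edgeR. Omission of any 1 embryo gave -1.92 to -0.70, and the embryo code number as a block gave 0.042, on the other side of 0. *Tyms*, thymidylate synthase of the de novo pathway, was at 152, 148 and 169 CPM in Ctrl, 115, 96.2 and 132 in cKO and 123, 159.6 and 102 in dcKO, with log2 fold changes of -0.45 (SE 0.20) and -0.29 (SE 0.20), and of -0.64 and -0.58 with the GC correction. Without 1 embryo the dcKO value ran from -0.48 to -0.15. The cKO embryos lay below Ctrl, while dcKO replicate 2 lay among the Ctrl embryos. *Rrm2* was at 556, 539 and 584 CPM in Ctrl, 511, 464 and 487 in cKO and 479, 842 and 382 in dcKO, and *Rrm1*, the large subunit of the same enzyme, at 638, 641 and 772 CPM in Ctrl, 672, 569 and 654 in cKO and 750.0, 964 and 516 in dcKO. For both subunits dcKO replicate 2 was the highest embryo and dcKO replicate 3 the lowest.

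In the chromatin group, 4 of 5 genes had negative fold changes in both mutants. *Uhrf1*, which brings DNA methyltransferase to newly replicated DNA, was measured at 550.4, 513 and 441 CPM in Ctrl, 322, 343 and 352 in cKO and 255, 339 and 468 in dcKO. The log2 fold change was -0.57 (SE 0.22) in cKO and -0.50 (SE 0.22) in dcKO, and dcKO replicate 3 lay among the Ctrl embryos. The GC correction gave -0.46 and -0.28. In dcKO, leaving out 1 embryo gave -0.76 to -0.31 and the embryo code number as a block 0.084. *Chaf1a* (GRCm38, chr17:56040439-56072289, plus strand), the large subunit of chromatin assembly factor 1, was at 125, 124 and 114 CPM in Ctrl, 90.8, 92.7 and 87.0 in cKO and 62.1, 60.5 and 111 in dcKO, with every mutant embryo below Ctrl. Its log2 fold changes were -0.42 (SE 0.23) and -0.64 (SE 0.23), with edgeR adjusted p of 0.259 and 0.106. Leaving out 1 embryo gave -0.98 to -0.49 in dcKO, the lowest without dcKO replicate 3 (edgeR adjusted p = 0.000315). For *Chaf1b*, its partner, and *Ung*, which removes uracil from DNA, the 3 cKO embryos and dcKO replicates 1 and 2 also lay below Ctrl. *Slbp*, which binds the stem-loop of histone mRNAs, lay on the other side, at 117.3, 113 and 126 CPM in Ctrl, 149, 126 and 161 in cKO and 201, 262 and 112 in dcKO, with log2 fold changes of 0.29 (SE 0.27) and 0.69 (SE 0.27). The GC correction gave 0.042 and 0.21. In dcKO, leaving out 1 embryo gave 0.39 to 0.96, and the embryo code number as a block -0.17.

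The direct comparison of dcKO with cKO asks what loss of p53 adds in *Cnot3* mutants. *Cdkn1a*, which encodes the p53-driven CDK inhibitor p21, was at 16.7, 17.3 and 16.6 CPM in Ctrl, 86.6, 124 and 68.1 in cKO and 27.9, 8.99 and 21.5 in dcKO, and each cKO embryo exceeded every other embryo. Of 16 tested p53 target genes, 9 were higher in cKO than in Ctrl at an unadjusted edgeR p under 0.05, beside 15.3% of all genes, and 9 were lower in dcKO than in cKO, beside 2.38%. For the replication genes edgeR called 0 of 45 at an adjusted p under 0.05, beside 0.0146% of all genes, and 0 at an unadjusted p under 0.05 in either direction, beside 2.38% lower and 2.05% higher. DESeq2 called 0 (0.402% lower and 0.0292% higher over all genes), as did limma voom (0.227% and 0.0512%). The smallest unadjusted edgeR p was that of *Gins3*, at 0.0613. Next to it, *Pola1*, *Slbp*, *Rfc5*, *Mcm3*, *Ccne2* and *Rrm1* had the smallest p of their roles, with the embryo values above. The median of the 45 genes was 0.04, against 0.07 for all genes, and 0.0024 and 0.021 with the GC correction.

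That comparison depended on the embryos in the model. Without dcKO replicate 3, edgeR called 10 genes lower in dcKO than in cKO (13.0% of all genes) and 5 higher (13.3%). The lower genes were *Tk1*, *Gins2*, *Rfc2*, *Chaf1a*, *Mcm5*, *Pold1*, *Mcm3*, *Cdc45*, *Pola2* and *Mcm7*, and the higher were *Slbp*, *Pola1*, *Gins3*, *Pcna* and *Ccne2*. In that comparison *Gins2* had a log2 value of -1.03 (SE 0.15, adjusted p = 0.0126) and *Slbp* of 0.67 (SE 0.15, adjusted p = 0.0168). Only 2 dcKO embryos remain in it, and of these replicate 2 kept *Trp53* at 110.4 CPM and *Cnot3* at 48.2 CPM. Leaving out any other single embryo gave 0 genes in either direction by edgeR. With all embryos and the embryo code number as a block, edgeR called 2 lower, beside 5.1% of all genes, and 9 higher, beside 14.1%.

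The direction of a gene went with the GC content of its transcript. GC content of the longest transcript ran from 36.3% (*Ccne2*) to 61.0% (*Pold1*) over the 45 genes. Across the 45 genes, the log2 ratio of an embryo to the Ctrl mean had a Pearson r with GC content of -0.65, -0.54 and -0.65 in cKO replicates 1 to 3, of -0.73 and -0.82 in dcKO replicates 1 and 2, and of 0.19 in dcKO replicate 3. Over all genes tested with a GC value (n = 13561) the same embryos had r of -0.39, -0.25, -0.42, -0.60, -0.78 and 0.15. These points share their libraries and genes are not independent replicates, so that no p is given. Of the 15 genes with the highest GC content (51.4% to 61.0%), 13 had negative fold changes in cKO and 14 in dcKO. Of the 15 with the lowest (36.3% to 46.7%), 11 and 14 had positive fold changes.

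**Figure D4:**
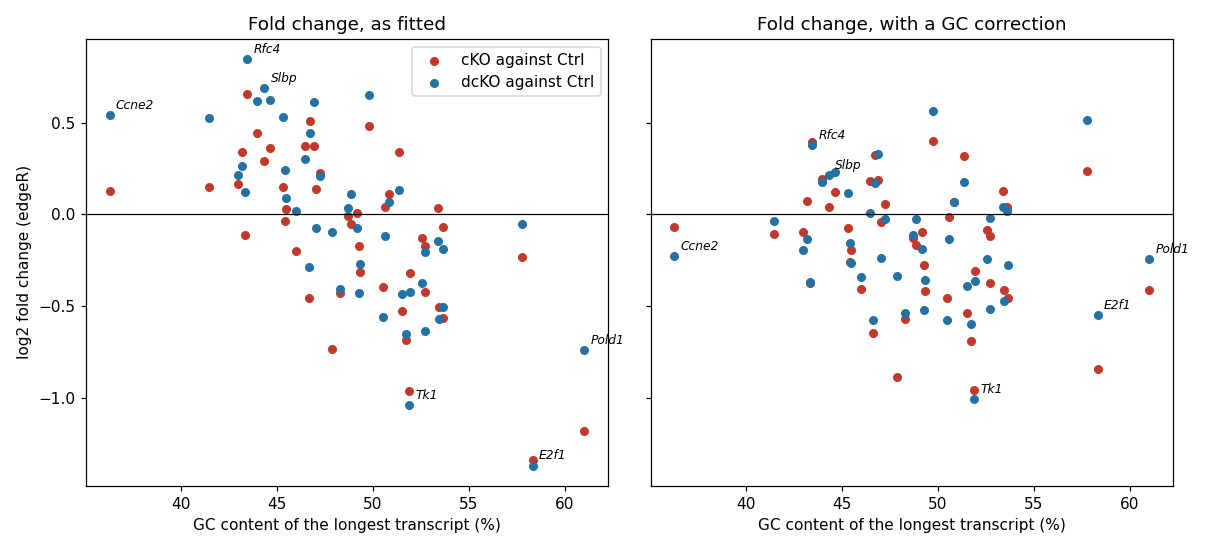
Log2 fold change of the 45 tested genes in cKO (red) and dcKO (blue) against GC content of the longest transcript in percent, as fitted (left) and with a GC correction within each library (right). On the left the values decline with GC content (r = -0.64 and -0.74), and on the right the slope is smaller (r = -0.28 and -0.17), with *Tk1* at about the same place in both panels.

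Each fold change was also computed with a GC correction within each library. With it, r over the 45 genes was -0.28 in cKO and -0.17 in dcKO, 35 and 31 of 45 genes kept their sign, and 30 and 31 lay below 0. The median was -0.10 in cKO and -0.19 in dcKO, against -0.03 and -0.02 for all genes. The values of *Mcm2*, at -0.69 and -0.60, and *Tk1*, at -0.96 and -1.01, moved little. In cKO, edgeR with this correction called 2 of 45 genes lower at an adjusted p under 0.05, *Tyms* (-0.64, adjusted p = 0.0318) and *Gins3* (-0.89, adjusted p = 0.0418), beside 5.66% of all genes, and 0 higher, beside 4.75%. In dcKO it called 0 in either direction, beside 0.0% lower and 0.00737% higher. At an unadjusted p under 0.05 it had 10 genes lower and 3 higher in cKO, beside 18.6% and 16.2%, and 10 lower and 4 higher in dcKO, beside 13.2% and 13.1%. Beyond this correction, the part of GC content in the fold changes was not tested.

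Other genes of the pathway lay on both sides of Ctrl as well. Of 42 further replication genes tested, 2 were lower and 7 higher in cKO at an unadjusted edgeR p under 0.05, and 1 was lower and 14 higher in dcKO, with 0 past an adjusted p of 0.05. Over all genes the unadjusted shares were 11.7% and 15.3% in cKO and 11.2% and 18.0% in dcKO. After the GC correction this list had 6 lower and 6 higher in cKO, beside 18.6% and 16.2% of all genes. In dcKO it had 1 lower and 5 higher, beside 13.2% and 13.1%. DESeq2 called 0 lower and 4 higher in cKO, beside 7.07% and 9.6%, and 1 lower and 3 higher in dcKO, beside 7.4% and 10.3%. Their median log2 fold change was 0.10 in cKO and 0.43 in dcKO, and -0.04 and -0.06 with the GC correction. By embryo, their median log2 ratio to the Ctrl mean was 0.34, 0.52 and -0.05 in dcKO replicates 1 to 3. *Wdhd1*, a fork protein that couples the helicase to polymerase alpha, was at 83.9, 86.6 and 88.7 CPM in Ctrl, 146, 125 and 154 in cKO and 202, 147 and 129 in dcKO. All mutant embryos exceeded Ctrl, with log2 values of 0.71 (SE 0.19) and 0.88 (SE 0.19) and edgeR adjusted p of 0.0592 and 0.0502, and 0.50 and 0.55 with the GC correction (adjusted p = 0.0471 and 0.0624). *Dnmt1*, the maintenance DNA methyltransferase, was at 515, 463 and 481 CPM in Ctrl, 356, 346 and 347 in cKO and 247, 291 and 393 in dcKO, with every mutant embryo below Ctrl and log2 values of -0.48 (SE 0.19) and -0.65 (SE 0.19), and of -0.35 and -0.39 with the GC correction.

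Of 9 other E2F and DP factors, 4 were lower and 0 higher in cKO at an unadjusted p under 0.05, and 3 were lower and 1 higher in dcKO, read against the same shares of all genes. With the GC correction the counts were 5 and 0 in cKO, beside 18.6% and 16.2% of all genes, and 2 and 0 in dcKO, beside 13.2% and 13.1%. DESeq2 called 3 lower in each mutant, beside 7.07% and 7.4% of all genes. *E2f2*, another activator, was at 62.1, 62.3 and 57.7 CPM in Ctrl, 25.8, 24.02 and 27.0 in cKO and 20.2, 41.8 and 29.9 in dcKO, with log2 values of -1.24 (SE 0.25) and -0.98 (SE 0.25) and DESeq2 adjusted p of 0.00042 and 0.0049. *Tfdp1*, the DP partner of E2F factors, was at 241, 232 and 247 CPM in Ctrl, 176, 145 and 166 in cKO and 131, 199 and 153 in dcKO, with -0.56 (SE 0.18) and -0.57 (SE 0.18). As for *E2f1*, all 6 mutant embryos lay below Ctrl for *E2f2* and for *Tfdp1*. With the GC correction *E2f2* had values of -0.91 and -0.32, and *Tfdp1* of -0.74 and -0.83. Of 16 mitosis genes, 0 passed an unadjusted p of 0.05 in cKO, and in dcKO 0 were lower and 3 higher (18.0% of all genes were), with medians of 0.086 and 0.22 and 0 calls by DESeq2 in either mutant. With the GC correction the medians were -0.0036 and 0.037. It gave 1 lower and 1 higher in cKO, beside 18.6% and 16.2% of all genes, and 0 in dcKO, beside 13.2% and 13.1%.

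Markers of other cells differed in level between embryos. The 10 genes of neurons, which have left the cell cycle, summed to 1475 to 1925 CPM in Ctrl, 1107 to 1574 in cKO and 956 to 1868 in dcKO. The 6 genes of intermediate progenitors, which still divide, summed to 402 to 521 CPM in Ctrl, 363 to 443 in cKO and 338 to 678 in dcKO, with the highest sum of both lists among the mutant embryos in dcKO replicate 2. The 7 genes of cortical hem and choroid plexus summed to 79.9 to 111 CPM in Ctrl, 115 to 351 in cKO and 149 to 376 in dcKO, with 3 of 5 tested higher at an unadjusted p under 0.05 in each mutant, beside 15.3% and 18.0% of all genes. *Ttr*, which defines choroid plexus, had 0 CPM in all Ctrl embryos and 5.91, 10.9 and 32.8 in cKO and 56.9, 3.42 and 6.17 in dcKO. The 6 erythroid genes summed to 7119 to 10403 CPM in Ctrl, 8784 to 13350 in cKO and 4712 to 6451 in dcKO. In dcKO the sums of 5 endothelial genes (120.3 to 131 CPM) and 5 microglial genes (12.8 to 30.6) lay below Ctrl (180.3 to 247 and 34.5 to 42.3). The 5 Cajal-Retzius genes summed to 110.2 to 140.0 CPM in Ctrl, 104 to 167 in cKO and 70.3 to 103 in dcKO, and the 8 subpallial genes to 23.5 to 29.4, 22.8 to 26.0 and 25.2 to 43.7. The 6 meningeal genes summed to 779.9 to 858 CPM in Ctrl, 452 to 694 in cKO and 324 to 518 in dcKO. Their part in the levels of the replication genes was not tested.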

How the data were processed

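RNA was sequenced from cortices of single E12.5 embryos, 3 per genotype. The deposited values are raw counts per gene from featureCounts, for 57010 genes. The authors made stranded poly(A) libraries, used Cutadapt for trimming and mapped the reads with STAR on mm39. Versions, and the strand setting of the counting, are not given in the sources used here. Groups and replicate numbers come from the sample titles.

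Counts were tested in R 4.3.3 with edgeR 4.0.16 (TMM, quasi-likelihood test, 1 model of all 9 embryos, no covariate) over 13680 genes, each above 10 reads in all 9 embryos. P-values were adjusted by Benjamini-Hochberg over all genes tested, with a threshold of 0.05. The standard error is the size of the log2 fold change divided by the square root of F. DESeq2 1.42.0 and limma 3.58.1 were alternatives. Others were RLE and upper-quartile factors, no filter, filterByExpr, a model of the 6 compared embryos alone, omission of each embryo in turn, as a block either the replicate number or a number inside the embryo code (its meaning is not given in the sources used here), a GC correction (loess of log2 counts on GC content, span 0.3), and thresholds of an adjusted p of 0.1 or of 0.05 with a log2 fold change above 1. Symbols, coordinates, exon length and GC content came from GENCODE M21 on GRCm38, a build other than that of the counts, for 52081 matched identifiers. GC content was known for 99.1% of genes tested. Promoters came from RefSeq (GRCm38.p6). Other steps ran in Python 3.11.15 (pandas 2.3.3, NumPy 2.4.6, SciPy 1.17.1).

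The genes, lists, tests and alternatives were chosen with earlier results of these data known. Values in every embryo are given for the gene with the smallest edgeR p of each role in each comparison, for *Mcm2* to *Mcm7*, *Pcna*, *Cdc6*, *Cdt1*, *Gmnn*, *Rrm2*, *Tyms*, *Ccne1*, *Ccne2* and *E2f1*, and for genes at the end of a range. *Orc1* and *Cdc45* were added after their values were seen, as genes with all mutant embryos beyond Ctrl. Outside the set, *Cnot3*, *Trp53*, *Cdkn1a* and pathway genes with the smallest p are named. Replicates are separate embryos, and whether same-numbered embryos share a litter is not stated.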

Additional observations from a re-analysis of the deposited data

How the results depend on the processing

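Counts of replication genes called depended on the setting and are given with the share of all genes called in parentheses. In cKO against Ctrl the lower genes, 0 by edgeR over 9 embryos, numbered 1 with DESeq2 (7.07%), upper-quartile factors (1.1%), no filter (2.08%) or an adjusted p of 0.1 (5.53%), 2 with the GC correction (5.66%), 14 with limma voom (27.3%), and 15 with the 6 embryos alone (23.7%) or the embryo code number as a block (23.5%). The higher genes, also 0, numbered 1 with DESeq2 (9.6%) or an adjusted p of 0.1 (8.64%), 9 with the 6 embryos alone (23.5%), 10 with the code number block (21.5%) and 12 with limma voom (27.6%). In dcKO the lower genes numbered 1 with no filter (1.74%) or an adjusted p of 0.1 (5.88%), 2 with DESeq2 (7.4%) and 14 with limma voom (26.2%). The higher genes numbered 3 with DESeq2 (10.3%), 4 at an adjusted p of 0.1 (10.9%) and 11 with limma voom (26.5%). The limma voom values of *Tk1*, *Gins2* and *Pold1* in dcKO lay near those of edgeR without dcKO replicate 3, and that of *Slbp* did not. With the code number block, cKO is compared with Ctrl through cKO replicates 2 and 3 only. There dcKO is compared through replicate 3 alone, so that its counts for dcKO are not given. Leaving out 1 embryo gave 0 to 12 lower and 0 to 7 higher in cKO, 0 to 16 and 0 to 12 in dcKO, and 0 to 10 and 0 to 5 between the mutants, with each upper end reached without dcKO replicate 3. Without dcKO replicate 2, cKO had 2 lower (7.15%) and 1 higher (11.2%) and dcKO 1 (6.04%) and 1 (11.9%), and without dcKO replicate 1, cKO had 1 lower (5.37%).

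The median log2 fold change in cKO (-0.04) was 0.070 with upper-quartile factors, which moved the median of all genes from 0.01 to 0.12. In dcKO (-0.05) it was -0.15 with no filter, -0.19 with the GC correction and -0.19 with the replicate block and GC correction. Between the mutants (0.04) it was -0.15 with the code number block. Without 1 embryo the medians ranged from -0.10 to 0.02 in cKO, from -0.081 to 0.087 in dcKO and from -0.02 to 0.10 between the mutants.

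Over 36 log2 fold changes of single genes under the alternatives, 599 values kept direction and side of the threshold, 113 passed the threshold anew and 8 reversed, all in dcKO. *Gins3* was 0.16 without dcKO replicate 3, and its values without 1 embryo ranged from -0.48 to 0.16. *Mcm6* was -0.023 with the GC correction and -0.031 with the replicate block and GC correction. With the code number block *Gins2* was 0.51, *Pold1* 1.15, *Slbp* -0.17, *Tk1* 0.042 and *Uhrf1* 0.084. In that fit only 3 numbers are shared by 2 genotypes, and dcKO replicate 3 is the only dcKO embryo that shares one, with Ctrl replicate 3. Its values in dcKO are therefore those of dcKO replicate 3 against Ctrl replicate 3, not of 3 embryos per genotype. For *Gins3* and *Mcm6* the cause was not tested.

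Same-numbered embryos did not deviate together (mean r of -0.17 over 9 pairs, from -0.54 to 0.13, against 0.08 over 18 other pairs). Deviations were taken from the mean of 3 embryos and are tied to each other. These r values therefore cannot settle whether the replicate numbers pair the embryos. The replicate block gave 0 lower and 0 higher genes in all 3 comparisons and medians of -0.03, -0.07 and -0.001. Calls rest on 3 embryos per genotype.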
